A study of Homo sapiens with 4 samples.

Results

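Genes whose symbol starts with KCN encode the pore-forming subunits of potassium channels and many of the proteins that assemble with them, and 98 of the 23228 genes listed in the count tables carry such a symbol. They were taken by symbol alone, without use of their counts. Liquiritigenin (Liq) is a plant flavanone that the authors use as an agonist of estrogen receptor β, and ES2 cells are a line grown from a human ovarian carcinoma. ES2 cells were given vehicle or 100 μM Liq for 24 h, and total RNA was sequenced from 2 samples per group. Both groups grew in RPMI medium free of phenol red with charcoal-treated serum, and all samples come from 1 cell line. The labels do not say whether the samples of a group came from separate cultures, so p-values measure only the spread between these samples. The gene counts of a sample summed to between 34573053 and 48933893, and 3 counts corresponded to 0.0598 to 0.0844 CPM (counts scaled to a common library size).

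Potassium channels let K+ leave or enter the cell down its electrochemical gradient and set the resting membrane potential. Voltage-gated channels open on depolarization, calcium-activated channels open when cytosolic Ca2+ rises, inward rectifiers pass K+ more easily into the cell than out of it, and channels with tandem pore domains carry a background leak. In tumor cells such channels are known for their part in cell volume control, proliferation and migration. Auxiliary proteins bind the pore subunits and change their gating or transport to the membrane, and some pore subunits, such as those of the KCNG and KCNS families, are silent on their own and act within channels built on other subunits.

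Most KCN genes were not measurably expressed in ES2 cells. Of the 98 genes, 31 (31.6%) passed the filter on low counts and were tested, against 58.3% of all listed genes, and 36 had 0 counts in all 4 samples. The other 31 had a few counts but failed the filter, none with more than 7 counts in a sample. Roles were assigned by symbol alone. By role, the tested genes were 9 of 40 voltage-gated pore subunits, 5 of 8 calcium- or sodium-activated channels, 3 of 16 inward rectifiers, 3 of 15 tandem-pore-domain channels, 10 of 17 auxiliary proteins and 1 of 2 non-coding entries. Of the 31 tested genes, 30 had at least 10 counts in every sample. The exception was KCNRG, a regulator of channel assembly, with 26 and 15 counts in vehicle and 9 and 16 in Liq.

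**Figure D1:**
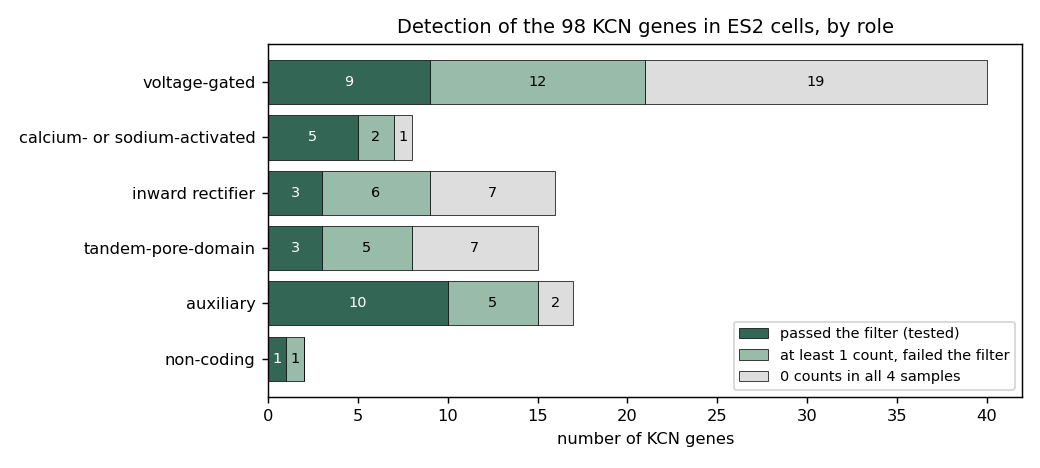
Number of KCN genes (horizontal axis) in each role group (vertical axis), divided into genes that passed the filter on low counts, genes with at least 1 count that failed it, and genes with 0 counts in all 4 samples. Auxiliary proteins had the most tested members, 10 of 17, while 19 of 40 voltage-gated subunits had no count.

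The floor was set at 3 counts per library, or 0.0598 to 0.0844 CPM, and is not a strict upper limit on expression. Reads tallied as not unique are not in the counts. A count of 0 in every sample was found for 36 genes. Among these genes were KCNA1, KCNA10, KCNA2, KCNA3, KCNA4, KCNA5, KCNA7, KCNB2, KCNC2, KCND3, KCNG2, KCNG4, KCNH6, KCNIP1, KCNJ1, KCNJ10, KCNJ13, KCNJ16, KCNJ18, KCNJ6, KCNJ9, KCNK10, KCNK15, KCNK16, KCNK17, KCNK18, KCNK3, KCNK5, KCNMB1, KCNQ1, KCNS1, KCNS2, KCNT1 and KCNV2. They include all listed genes of the voltage-gated KCNA family except KCNA6, and KCNQ1, a channel of heart and epithelia. KCNA6 had 1 count in each vehicle sample and 0 in both Liq samples. KCNJ3 and KCNMB2 had the opposite pattern, with 0 counts in vehicle and 1 in each Liq sample. All of these lie under the 3 counts that set the floor, so no difference was detectable at this depth. The failed gene with the most counts was KCNN3, a small-conductance calcium-activated channel, with 3 and 7 counts in vehicle and 2 and 5 in Liq. Other genes with 7 or fewer counts in each sample included KCNC1, KCND2, KCNE1, KCNE2, KCNE3, KCNF1, KCNH2, KCNH4, KCNH5, KCNH7, KCNH8, KCNIP4, KCNJ11, KCNJ12, KCNJ15, KCNJ4, KCNJ5, KCNK12, KCNK13, KCNK4, KCNK7, KCNK9, KCNN1, KCNQ1DN and KCNV1. Over all 67 genes that failed the filter, the counts summed to 34 and 35 in vehicle and 34 and 36 in Liq.

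Levels can be compared between genes only per length of transcript, and were therefore expressed as RPKM, the CPM divided by the length of the annotated exons in kilobases. KCNG1, a silent voltage-gated subunit, had the highest level of the tested KCN genes, with an RPKM of 24.6 as a mean of the 4 samples, and its lowest sample (22.6) lay above the highest sample of any other member. KCNAB2 followed with an RPKM of 7.91 and KCNN4 with 6.72, and their ranges over the samples overlapped. The next 5 were KCNK2 (RPKM 4.45), KCNQ5 (4.25), KCNIP3 (4.16), KCNMA1 (4.09) and KCNS3 (3.51), and each of these overlapped its neighbour in the order. KCNS3 did not overlap the gene after it, KCNJ2 (RPKM 1.92). With the length of the canonical transcript in place of all annotated exons, KCNG1 (RPKM 61.0) and KCNAB2 (32.6) stayed the highest, and KCNMA1 moved from rank 7 to rank 3 (25.7).

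In CPM, without regard to length, the sum over all 98 genes was 666 and 646 CPM in vehicle and 656 and 627 CPM in Liq, so the total of the family overlapped between the groups. In such bulk samples, a lower level can come from fewer expressing cells or from less RNA per cell, which cannot be told apart. Tandem-pore-domain channels summed to 38.1 and 36.5 CPM in vehicle and 28.9 and 27.3 CPM in Liq. Voltage-gated subunits summed to 211 and 203 CPM in vehicle and 240 and 218 CPM in Liq. Auxiliary proteins summed to 204 and 191 CPM in vehicle and 178 and 168 CPM in Liq, and calcium- or sodium-activated channels to between 191 and 196 CPM in all samples. The sums of these 3 groups are set mainly by KCNG1, KCNAB2 and KCNMA1, each above 115 CPM in every sample.

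**Figure D2:**
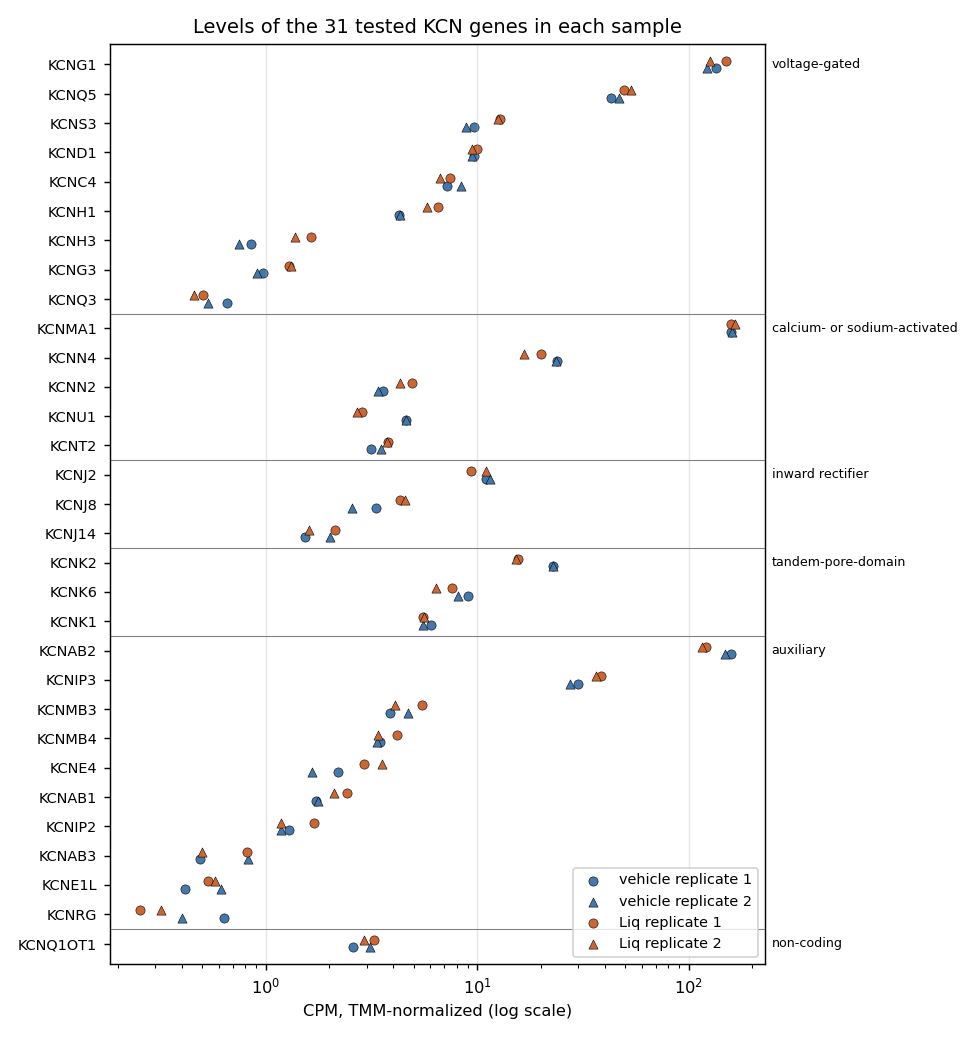
CPM of the 31 tested KCN genes (horizontal axis, log scale) in each sample, grouped by role (vertical axis). Circles are replicate 1 and triangles replicate 2, in blue for vehicle and orange for Liq. KCNMA1, KCNAB2 and KCNG1 lie above 100 CPM, and most other members lie under 13 CPM.

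Liq and vehicle were compared with edgeR's quasi-likelihood test over all 13546 tested genes, and a gene was called at a Benjamini-Hochberg adjusted p-value under 0.05 and a fold change of at least 1.5. By this rule 3 of the 31 tested KCN genes were higher with Liq (KCNH3, KCNE4 and KCNJ8), while 4.29% of all tested genes were called higher. KCNU1 was the 1 member called lower, while 2.16% of all tested genes were. Without the threshold on fold change, 6 members were higher and 4 lower, against 12.6% and 11.3% of all tested genes. The median log2 fold change of the 31 members was 0.11, and that of all tested genes was 0.0062. KCN genes were mostly of low expression: 24 of the 31 lay in the lowest of 3 equal bins of tested genes by mean CPM, under 12.9 CPM. In that bin, 11% of all genes were called higher and 3.79% lower, and the median log2 fold change was 0.154. All 4 called members belonged to it, 12.5% of its 24 KCN genes being higher and 4.17% lower, with a median of 0.132. With loess offsets, which remove a trend of fold change along expression, 0 members were called higher and 2 lower (KCNK2 and KCNU1), the members' median was -0.019, and all tested genes divided into 352 higher and 391 lower in place of 581 and 293. With the DESeq2 Wald test 0 members were called higher and 1 lower. The groups did not overlap for 18 of the 31 members, 58.1%, against 61.7% of all tested genes. The share of KCN genes called was near that of all genes at this expression level.

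**Figure D3:**
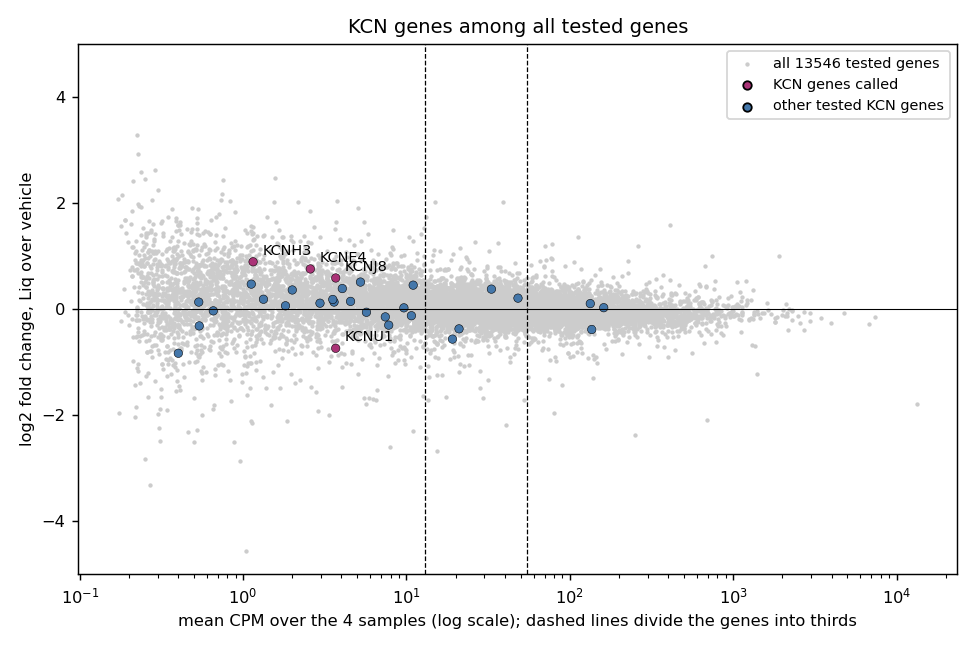
Log2 fold change of Liq over vehicle (vertical axis) against mean CPM over the 4 samples (horizontal axis, log scale) for all 13546 tested genes in grey, the 4 called KCN genes in purple and the other 27 tested KCN genes in blue. Dashed lines divide the tested genes into 3 equal bins by mean expression, and 24 of the 31 KCN genes lie in the lowest bin.

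In the role groups below, rose and fell mean an adjusted p under 0.05 at any fold. Of all tested genes, 12.6% rose and 11.3% fell by this measure. Among voltage-gated subunits, 3 of the 9 tested genes rose with Liq and 0 fell, and 1 of the 3 reached 1.5-fold. No role was tested as a group. KCNH3 encodes a channel of the ether-à-go-go family that is best known from brain (chromosome 12 from 49932813 to 49952120, GRCh37). It was measured at 0.851 and 0.748 CPM in vehicle and 1.63 and 1.38 CPM in Liq, on 28 to 69 counts per sample. The vehicle and Liq means were 0.8 ± 0.0731 and 1.5 ± 0.181 CPM (SD, n = 2). Both Liq samples lay above both vehicle samples, and the log2 fold change was 0.89 (SE 0.26, edgeR adjusted p = 0.0126). This call was lost with the DESeq2 Wald test (adjusted p = 0.148), with loess offsets along expression (adjusted p = 0.0563), and without vehicle replicate 1 (adjusted p = 0.0605), vehicle replicate 2 (adjusted p = 0.121) or Liq replicate 1 (adjusted p = 0.0567).

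KCNH1, a related channel often studied in tumors (chromosome 1 from 210850165 to 211307507), had 4.28 and 4.33 CPM in vehicle and 6.52 and 5.78 CPM in Liq. The groups did not overlap, and the log2 fold change was 0.51 (SE 0.14, edgeR adjusted p = 0.00878), which is under 1.5-fold. The annotation places 46.8% of its exon bases within exons of other gene models, so its count is uncertain, and its adjusted p rose to 0.0802 with DESeq2, 0.0765 without vehicle replicate 1 and 0.0568 without vehicle replicate 2. The silent subunit KCNS3 (chromosome 2 from 18059114 to 18542882) had 9.66 and 8.90 CPM in vehicle and 12.9 and 12.5 CPM in Liq. Its log2 fold change was 0.45 (SE 0.11, edgeR adjusted p = 0.00372), again without overlap of the groups, and without vehicle replicate 2 the adjusted p was 0.0834.

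KCNG1, KCNQ5 and KCND1 did not pass the test. KCNG1 had 135 and 122 CPM in vehicle and 150 and 127 CPM in Liq, overlapping values with a log2 fold change of 0.10 (95% interval -0.06 to 0.27). KCNQ5, a channel of the M current, had 42.7 and 46.8 CPM in vehicle and 49.6 and 53.5 CPM in Liq. Its groups did not overlap, but the adjusted p was 0.0795 in edgeR at a log2 fold change of 0.21 (95% interval 0.03 to 0.38). KCND1, which carries a transient outward current, stayed between 9.44 and 10.01 CPM in all samples (95% interval of the log2 fold change -0.21 to 0.25).

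Of the 5 tested genes placed by symbol among calcium- or sodium-activated channels, 2 fell and 0 rose. The shares of all tested genes at any fold were 11.3% and 12.6%. The symbol alone puts KCNU1 in this group, and KCNN4 is the calcium-activated channel of the 2. KCNU1, a pH-sensitive channel known from sperm (chromosome 8 from 36641842 to 36793643), had 4.60 and 4.62 CPM in vehicle and 2.84 and 2.69 CPM in Liq, with means of 4.61 ± 0.0172 and 2.77 ± 0.106 CPM (SD, n = 2). The vehicle samples were close to each other and far above the Liq samples, and the log2 fold change was -0.74 (SE 0.16, edgeR adjusted p = 0.00106). It passed both thresholds under each of the 11 other settings tried, with log2 fold changes from -0.89 to -0.70. KCNN4, the intermediate-conductance channel opened by Ca2+ through calmodulin (chromosome 19 from 44270685 to 44285128), had 23.8 and 23.5 CPM in vehicle and 19.99 and 16.6 CPM in Liq. Its log2 fold change was -0.37 (SE 0.10, edgeR adjusted p = 0.00853), under 1.5-fold, and the adjusted p was 0.0786 without vehicle replicate 1, 0.0576 without vehicle replicate 2 and 0.0853 without Liq replicate 2.

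KCNMA1, the pore of the large-conductance channel opened jointly by Ca2+ and voltage, was measured at 159 and 161 CPM in vehicle against 159 and 166 CPM in Liq. Its 95% interval for the log2 fold change ran from -0.12 to 0.17. KCNN2, a small-conductance channel, had 3.6 and 3.39 CPM in vehicle and 4.89 and 4.30 CPM in Liq and did not pass (log2 fold change 0.39, edgeR adjusted p = 0.0659).

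Among the 3 tested inward rectifiers, KCNJ8 rose and 0 fell. KCNJ8 forms the pore of ATP-sensitive channels together with sulfonylurea receptors (chromosome 12 from 21917889 to 21928534). It had 3.33 and 2.56 CPM in vehicle and 4.30 and 4.56 CPM in Liq, with means of 2.95 ± 0.543 and 4.43 ± 0.184 CPM (SD, n = 2). The groups did not overlap, and the log2 fold change was 0.59 (SE 0.16, edgeR adjusted p = 0.00987), a fold change of 1.501 at the very edge of the threshold. The adjusted p was 0.0998 with DESeq2, 0.0634 with loess offsets and 0.201 without vehicle replicate 2. KCNJ2, a strong rectifier that stabilizes the resting potential, had 11.0 and 11.5 CPM in vehicle and 9.39 and 11.1 CPM in Liq (95% interval of the log2 fold change -0.36 to 0.11).

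All 3 tested tandem-pore-domain channels had negative log2 fold changes, and 1 of them passed the test. KCNK2, a background channel opened by membrane stretch and lipids (chromosome 1 from 215179118 to 215410433), had 22.9 and 22.7 CPM in vehicle and 15.6 and 15.2 CPM in Liq. Replicates differed by less than 1 CPM within each group, and the log2 fold change was -0.57 (SE 0.10, edgeR adjusted p = 0.000102), a decrease of 1.48-fold that fell just short of the fold threshold. KCNK2 had the lowest adjusted p of the tested members and kept it under 0.05 in each of the 11 other settings, and with loess offsets its log2 fold change of -0.60 passed both thresholds. KCNK6 had 8.999 and 8.15 CPM in vehicle and 7.59 and 6.40 CPM in Liq (log2 fold change -0.30, edgeR adjusted p = 0.0815). KCNK1 stayed between 5.54 and 6.06 CPM, with a 95% interval of the log2 fold change from -0.33 to 0.21.

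Of the 10 tested auxiliary proteins, 2 rose and 1 fell at any fold, beside 12.6% and 11.3% of all tested genes. KCNE4, a small membrane subunit that dampens several voltage-gated channels (chromosome 2 from 223916908 to 224063117), had 2.19 and 1.66 CPM in vehicle and 2.93 and 3.55 CPM in Liq, with means of 1.92 ± 0.377 and 3.24 ± 0.44 CPM (SD, n = 2). The log2 fold change was 0.76 (SE 0.19, edgeR adjusted p = 0.00474), without overlap of the groups. The adjusted p was 0.0721 with DESeq2 and 0.104 without vehicle replicate 2, and with loess offsets the log2 fold change of 0.58 (adjusted p = 0.0353) was just under 1.5-fold. KCNIP3, a calcium sensor that binds KCND channels and also acts as a transcriptional repressor (chromosome 2 from 95963075 to 96051825), had 30.1 and 27.5 CPM in vehicle and 38.4 and 36.5 CPM in Liq. Its log2 fold change was 0.38 (SE 0.09, edgeR adjusted p = 0.00318), and without vehicle replicate 2 the adjusted p was 0.128.

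KCNAB2, a cytosolic subunit of KCNA channels with an aldo-keto reductase fold (chromosome 1 from 6050987 to 6161253), fell from 159 and 149 CPM in vehicle to 121 and 115 CPM in Liq. The log2 fold change was -0.39 (SE 0.07, edgeR adjusted p = 0.000344), and the adjusted p stayed under 0.05 in each of the 11 other settings. The subunits of the large-conductance channel did not pass, with log2 fold changes of 0.14 for KCNMB3 (95% interval -0.18 to 0.47) and 0.13 for KCNMB4 (95% interval -0.20 to 0.46). KCNMB3 shares 47.6% of its exon bases with other gene models and is therefore uncertain. KCNRG had the most negative log2 fold change of the members, -0.83, but on so few counts that its 95% interval ran from -1.68 to 0.01 (edgeR adjusted p = 0.144), and it shares 66.8% of its exon bases with TRIM13. KCNRG is named here because its value stood out.

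**Figure D4:**
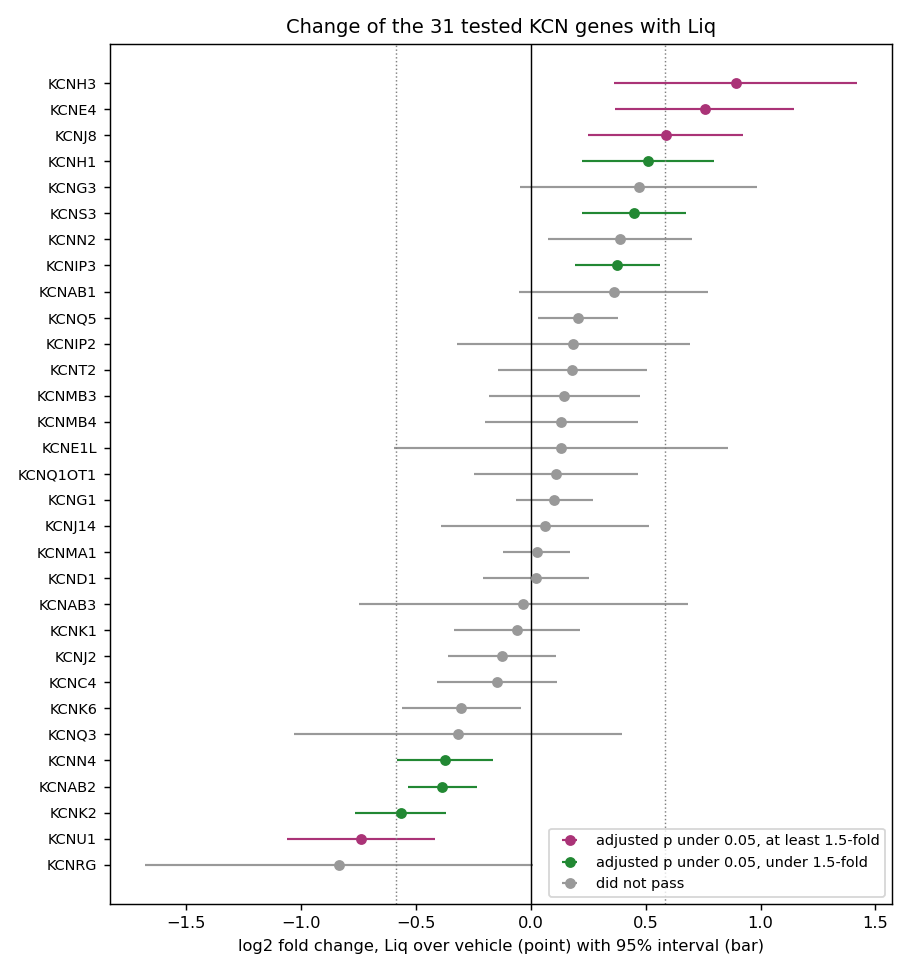
Log2 fold change of Liq over vehicle (horizontal axis) for each of the 31 tested KCN genes (vertical axis), as points with 95% intervals from edgeR. Purple marks the 4 called genes, green the 6 genes with an adjusted p under 0.05 and less than 1.5-fold change, and grey the 21 that did not pass, and the dotted lines mark a fold change of 1.5 in either direction.

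The tested non-coding member was KCNQ1OT1, an imprinted transcript that runs antisense through the KCNQ1 gene. It had 2.58 and 3.10 CPM in vehicle and 3.23 and 2.91 CPM in Liq, with overlapping groups and a log2 fold change of 0.11 (edgeR adjusted p = 0.69). KCNQ1 itself was listed with 0 counts in all samples. The other tested members that did not pass were KCNAB1, KCNAB3, KCNC4, KCNE1L (KCNE5 in newer annotation), KCNG3, KCNIP2, KCNJ14, KCNQ3 and KCNT2, measured at 0.414 to 8.36 CPM, with log2 fold changes from -0.32 for KCNQ3 to 0.47 for KCNG3.

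The 10 members that passed the test at any fold are shown under each setting in the plot of log2 fold changes by setting. None changed its direction. KCNAB2, KCNK2 and KCNU1 kept an adjusted p under 0.05 in each of the 11 settings, and the other 7 members lost it in at least 1. For KCNS3 and KCNIP3 the 1 such setting was the fit without vehicle replicate 2, with log2 fold changes of 0.39 and 0.31. A fit without 1 sample leaves a group with a lone sample, which is assumed to vary like the other group. Without vehicle replicate 2, 0 members were called higher at 1.5-fold, and KCNU1 was still called lower.

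**Figure D5:**
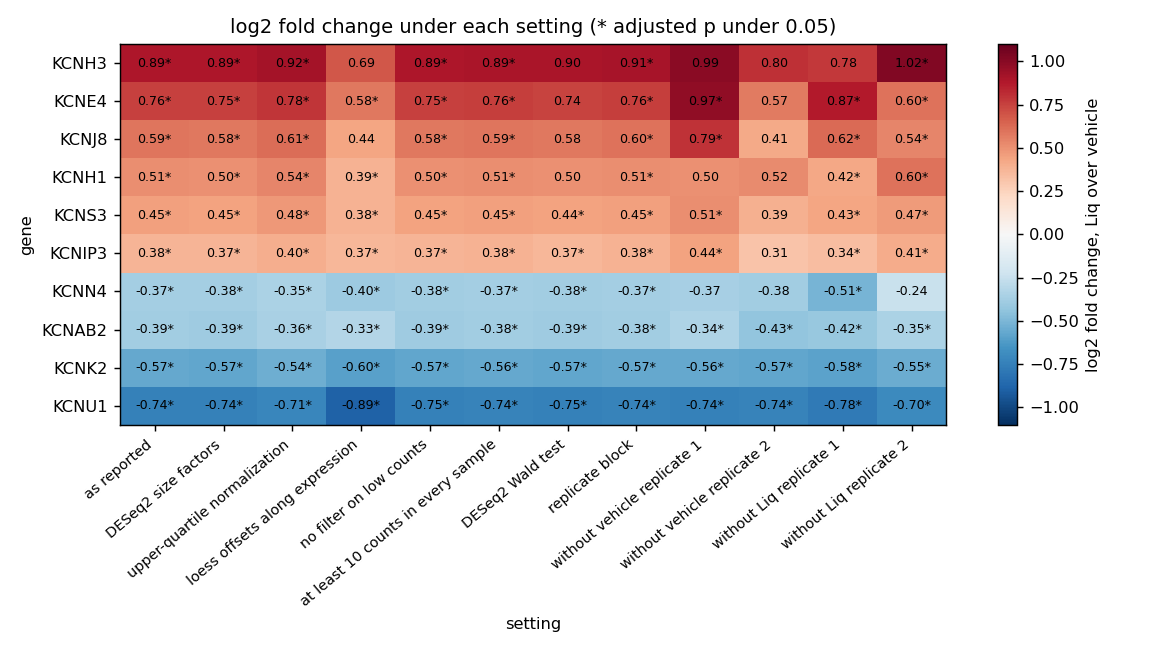
Log2 fold change of Liq over vehicle (color and number) for the 10 KCN genes with an adjusted p under 0.05 (vertical axis) under each setting of the analysis (horizontal axis). An asterisk marks an adjusted p under 0.05, and the rows of KCNAB2, KCNK2 and KCNU1 carry it in every column.

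Promoters of the members that passed the test were examined for short motifs. The RefSeq promoter table (GRCh38.p14, 300 bases around each start site) held entries for 7 of the 10 members, KCNAB2, KCNH1, KCNIP3, KCNJ8, KCNK2, KCNN4 and KCNS3. Both strands were searched for the antioxidant response element TGACNNNGC, bound by NRF2, for the AP-1 site TGANTCA, for the cyclic AMP response element TGACGTCA and for the palindromic estrogen response element GGTCANNNTGACC. The antioxidant element matched 13.3% of all 35116 promoter entries, AP-1 7.71%, the cyclic AMP element 1.85% and the estrogen element 0.057%. Matches were found to the antioxidant element alone, at 1 KCNK2 start site (bases -166 to -158 from the start) and in the KCNN4 promoter (bases -222 to -214). Both genes fell with Liq, but KCNAB2, which also fell, had no match in any of its entries. Counting a gene once if any of its entries matched, 10 of 72 KCN genes with an entry held the antioxidant element. The 13.3% is a share of entries, not of genes counted in this way, so it is not a like background for this count. Among the tested KCN genes with an entry, 3 of 23 held it, KCNK2 and KCNN4 among them. With so few matches, whether they go with a fall cannot be told and was not tested. A match in sequence does not show that a factor binds there. The promoters of KCNK2 (chr1:215005292-215005591, plus strand) and KCNN4 (chr19:43780924-43781223, minus strand) are printed because they hold the matches, and that of KCNJ8 (chr12:21774657-21774956, minus strand), which rose, for comparison. Each runs 5′ to 3′ along its gene, and capitals mark the matched bases.
KCNK2: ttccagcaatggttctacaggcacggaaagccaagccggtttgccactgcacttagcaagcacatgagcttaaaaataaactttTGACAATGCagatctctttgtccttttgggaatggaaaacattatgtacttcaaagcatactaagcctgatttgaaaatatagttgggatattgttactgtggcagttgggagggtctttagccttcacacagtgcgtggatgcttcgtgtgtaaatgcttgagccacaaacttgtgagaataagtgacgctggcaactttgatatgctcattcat
KCNN4: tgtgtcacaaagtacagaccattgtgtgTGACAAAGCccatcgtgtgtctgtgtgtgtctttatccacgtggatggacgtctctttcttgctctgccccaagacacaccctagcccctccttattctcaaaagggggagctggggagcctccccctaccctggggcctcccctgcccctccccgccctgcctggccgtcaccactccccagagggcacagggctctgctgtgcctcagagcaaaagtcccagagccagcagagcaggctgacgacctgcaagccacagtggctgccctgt
KCNJ8: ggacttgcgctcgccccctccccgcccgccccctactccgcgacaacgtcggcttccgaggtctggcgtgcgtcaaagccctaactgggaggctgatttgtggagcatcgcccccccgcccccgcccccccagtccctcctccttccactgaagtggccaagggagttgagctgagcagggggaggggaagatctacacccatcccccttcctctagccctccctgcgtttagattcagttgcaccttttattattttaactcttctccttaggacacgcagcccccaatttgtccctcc

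Other genes of K+ transport were taken from a list of 48 pumps, cotransporters, channel partners and regulators. Of these, 24 were tested, 3 were called higher (12.5%) and 1 lower (4.17%), beside 4.29% and 2.16% of all tested genes. Without the threshold on fold change 3 were higher (12.5%) and 8 lower (33.3%), beside 12.6% and 11.3% of all tested genes. The median log2 fold change of the tested genes on the list was -0.013. SGK1, a kinase that raises the surface level of several ion channels, fell from 191 and 205 CPM in vehicle to 96.0 and 98.4 CPM in Liq (log2 fold change -1.03, SE 0.07, edgeR adjusted p = 5.33e-11). HCN3, a cation channel gated by hyperpolarization, had a log2 fold change of 0.64 (edgeR adjusted p = 0.0026), and TMEM175, a lysosomal K+ channel, one of 0.65 (edgeR adjusted p = 0.000536). With loess offsets both fell under 1.5-fold, as they did without vehicle replicate 1 or without Liq replicate 1 (log2 fold changes from 0.42 to 0.58 for HCN3 and from 0.49 to 0.57 for TMEM175), while their adjusted p stayed under 0.05.

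The label of the samples was checked against marker genes. The mesenchymal marker VIM was measured at 5871 to 7604 CPM and the 5 epithelial markers summed to 191 to 228 CPM, mostly KRT18, while CDH1 had 0 counts and EPCAM at most 3 in a sample. PAX8 and WT1 were low and fell with Liq (log2 fold changes -1.34 and -0.68, edgeR adjusted p = 0.00214 and 0.00285). Leukocyte markers summed to 0.0801 to 0.309 CPM and striated muscle markers to 0.0996 to 0.268 CPM, while the 3 endothelial markers summed to 44.7 to 53.3 CPM, mostly CDH5. The estrogen receptor genes ESR1 and ESR2 summed to 0.632 to 0.956 CPM, with 4 to 14 counts of ESR2 per sample. Many KCN genes are known from neurons, and the 4 neuronal markers summed to 17.0 and 15.8 CPM in vehicle and 41.4 and 40.01 CPM in Liq. MAP2 and SNAP25 were called higher, SYP did not pass, and RBFOX3 had 0 counts in every sample. The part of this difference in the KCN results was not tested.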

How the data were processed

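RNA-seq was made from 4 ES2 samples, 2 with vehicle and 2 with 100 μM Liq. Per the labels and the study's methods, the authors prepared TruSeq total RNA libraries, sequenced 100-base single reads (the labels disagree on the HiSeq model), aligned them with TopHat2 2.0.8b to hg19 and counted reads per gene with HTSeq. The HTSeq version, mode and strand setting are not given in the sources used here. The deposited values are raw counts per gene, 1 table per sample. The 5 tally lines at the end of each table were left out: 54.1 to 55.6% of all tallied reads lay on genes, and 35.6 to 36.2% were tallied as not unique, so genes with near-identical copies may be undercounted.

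Groups were taken from the labels. Genes were filtered with filterByExpr (minimum count 10, minimum total 15), scaled by TMM and tested with edgeR 4.0.16 (quasi-likelihood, R 4.3.3) over all 13546 genes kept, with Benjamini-Hochberg adjustment. CPM is the count scaled by the TMM-adjusted library size. RPKM used the union of exons in GENCODE v44 lifted to GRCh37, the build of the coordinates. A test over 2 against 2 samples by permutation could not go below p = 0.333. Tested on simulated counts for 13546 genes, edgeR recovered 97 of 100 genes changed 2-fold and 99 of 100 changed 4-fold. The simulation gave every gene the same spread beyond sampling noise (coefficient of variation 0.0575). It does not show recovery for genes that vary more. Recovery of changes under 2-fold, the size of every change called among KCN genes, was not tested. Recovery at low counts was not tested separately. Replicates differed by more than sampling noise (chi-square per degree of freedom 6.5 for vehicle and 11.6 for Liq). This does not show whether they came from separate cultures, and each was counted as a sample.

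The alternatives were DESeq2 size factors, upper-quartile scaling, loess offsets, no filter, the Wald test of DESeq2 1.42.0, a minimum of 10 counts in each sample, a replicate block, leaving out each sample, and other thresholds. The canonical transcript length was added after seeing the data. Named were all members with an adjusted p under 0.05, the 10 others with the highest RPKM, members counted in both samples of 1 group only, and genes called from the K+ transport list. KCNRG and KCNQ1OT1, and the partner genes in the closing section, were named after their values were seen. The members and lists were chosen with earlier results of these data known. Some listed genes are not reported here by name.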

Additional observations from a re-analysis of the deposited data

How the results depend on the processing

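All 10 members with an adjusted p under 0.05 kept their direction under each of the 11 alternatives. KCN genes called higher numbered 3 in the main analysis and 0 with loess offsets, 0 with the DESeq2 Wald test, 2 with DESeq2 size factors, 2 without a filter, 0 when a 2-fold change was required and 6 with no threshold on fold change. They ranged from 0 to 3 when a sample was left out: 0 without vehicle replicate 2, and 2 without vehicle replicate 1 or Liq replicate 1. Members called lower numbered 1, and 2 with loess offsets, 0 when a 2-fold change was required and 4 with no threshold on fold change; leaving out a sample gave 1 each time. The median log2 fold change of the members was 0.11, -0.019 with loess offsets and from -0.018 to 0.245 when a sample was left out. Over all genes, 581 were called higher in the main analysis, 352 with loess offsets and 313 with DESeq2. The cause of these differences was not tested. The labels do not say whether samples with the same replicate number share a source. Across genes, deviations from the group mean correlated at 0.129 for same-numbered samples and at -0.129 with the numbers crossed. With 2 samples per group these 2 values mirror each other, so they cannot show whether a source was shared. With the replicate block, 3 members were called higher and 1 lower, with 8 and 5 at any fold and a median of 0.108. From the K+ transport list, the genes called were 3 higher and 1 lower, 1 higher and 2 lower with loess offsets, and 1 higher without vehicle replicate 1 or Liq replicate 1. Depth limits the 67 members under the filter, for which no difference was detectable.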

Other observations

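Several channel proteins are known to act with a partner encoded by another gene. The levels of such pairs are given here with no test of the pairs, chosen after the counts were seen. KCNAB2, with 115 to 159 CPM, is known as a partner of KCNA channels, and the KCNA genes had 0 counts apart from KCNA6, with 1 count in each vehicle sample. The pore subunit KCNJ8 is known to assemble with the sulfonylurea receptor ABCC9. KCNJ8 rose with Liq, while ABCC9 went from 3.31 and 3.39 CPM in vehicle to 2.48 and 2.33 CPM in Liq. Per length of annotated exon, KCNMA1 had an RPKM of 4.03 to 4.22, and its tested auxiliary subunits had 0.431 to 0.612 (KCNMB3) and 0.693 to 0.856 (KCNMB4). With the canonical transcript length the mean RPKM was 25.7 for KCNMA1, 4.19 for KCNMB3 and 0.764 for KCNMB4.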
